A study of Drosophila melanogaster with 12 samples.

Results

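The genes described here are 10 planar polarity genes of *Drosophila melanogaster*, taken as the rows of the 12 deposited count tables whose symbol equals a listed gene. The core group has 6 of them, *fz* (*frizzled*), *stan* (*starry night*, also called *flamingo*), *Vang* (*Van Gogh*, also called *strabismus*), *pk* (*prickle*), *dgo* (*diego*) and *dsh* (*dishevelled*). The Fat/Dachsous group has the other 4, *ft* (*fat*), *ds* (*dachsous*), *fj* (*four-jointed*) and *d* (*dachs*). All 10 were found among the 15240 gene rows, and all 10 were among the 8469 genes expressed highly enough to be tested. RNAseq was performed on dissected wings at 6 time points, with 2 replicates of each. These were the L3 larva, prepupae at 6 h, and pupae at 18, 24, 36 and 44 h after puparium formation (APF). Every library came from pooled wings of animals with the genotype w1118/y,w, hs-FLP; + ; +, and there was no mutant or treated group. L3 animals were wandering larvae, a stage that the design text places at -10 h APF and the sample titles call 0 h APF. The series was designed to follow the wing from proliferation (L3) through a temporary G2 arrest (6 h), the final cell cycle (18 h) and permanent arrest (24 h) to the stages when wing hairs and cuticle form (36 and 44 h). The labels do not say whether replicates came from separate collections of animals, although the methods call them independent, so p-values measure the spread between these libraries.

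Planar polarity is the alignment of cells within the plane of an epithelium, and in the fly wing it is read from the hairs, since each cell makes a hair at its distal edge. In the core system the receptor Frizzled, with the cytoplasmic proteins Dishevelled and Diego, gathers at the distal side of a cell, while the membrane protein Van Gogh and its partner Prickle gather at the proximal side. The cadherin Starry night sits on both sides and links neighboring cells. In the other system the giant cadherins Fat and Dachsous bind each other between cells, the Golgi kinase Four-jointed tunes that binding, and the unconventional myosin Dachs is placed asymmetrically by them, which bears both on polarity and on growth through Hippo signaling. Transcript levels do not report where these proteins sit in a cell.

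Libraries held 1659208 to 6900002 reads on genes. Levels are given as CPM, counts scaled to the size of the library. By that measure 3 counts, taken as the floor of detection, were worth 0.363 to 1.53 CPM, and the lowest count of any of the 10 genes was 58, for *pk* in 6 h replicate 2. CPM were further scaled between libraries by the trimmed mean of M values (TMM), with factors of 0.70 to 1.37. All 8 marker genes listed for wing epithelium (*nub*, *vg*, *ap*, *sd*, *bs*, *Dll*, *rn*, *kn*) were above the floor in every library. Their summed level was 1294 to 1579 CPM at L3, 986 to 1051 CPM at 6 h, 2076 to 2099 CPM at 18 h, 2050 to 2456 CPM at 24 h, 1326 to 1405 CPM at 36 h and 906 to 921 CPM at 44 h. Markers of other cells moved over the same time points, the 7 muscle genes between 58.0 and 2950 CPM and the 6 neuronal genes between 37.8 and 384 CPM, both lists being lowest at L3 and reaching those maxima in a 44 h library. The 4 tracheal genes (*btl*, *trh*, *Gasp*, *verm*) summed to 5733 and 23702 CPM at 6 h and to 7674 and 8750 CPM at 44 h. The other libraries had 171 to 390 CPM. All 4 were above the floor in both libraries at L3, 6 and 36 h, and 3 of them at 18, 24 and 44 h. The sum does not tell which of the 4 genes carried it, or whether it followed the amount of tracheal tissue. In whole wings, fewer cells of a type and less RNA per cell cannot be told apart.

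The width of the range over the time course differed from gene to gene. The ratio of the highest to the lowest of the 6 time point means was 7.19 for *pk*, 6.92 for *dgo*, 4.0 for *fz*, 3.74 for *stan*, 2.72 for *Vang* and 1.83 for *dsh*. It was 1.96 for *fj*, 1.60 for *d*, 1.52 for *ds* and 1.48 for *ft*. The median ratio was 3.87 for the 6 core genes and 1.56 for the 4 Fat/Dachsous genes, beside 3.03 for all genes tested. The core gene *dsh* lay below the Fat/Dachsous gene *fj*, and the difference between the groups was not tested. In edgeR's joint test of any difference among the 6 time points, 7 of the 10 genes had a Benjamini-Hochberg adjusted p under 0.05, namely all 6 core genes (adjusted p between 2.2e-06 for *dgo* and 0.0306 for *dsh*) and *fj* (adjusted p = 0.0375). That count stands beside 83.5% of all genes tested. The adjusted p was 0.183 for *ds*, 0.313 for *ft* and 0.313 for *d*.

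**Figure D1:**
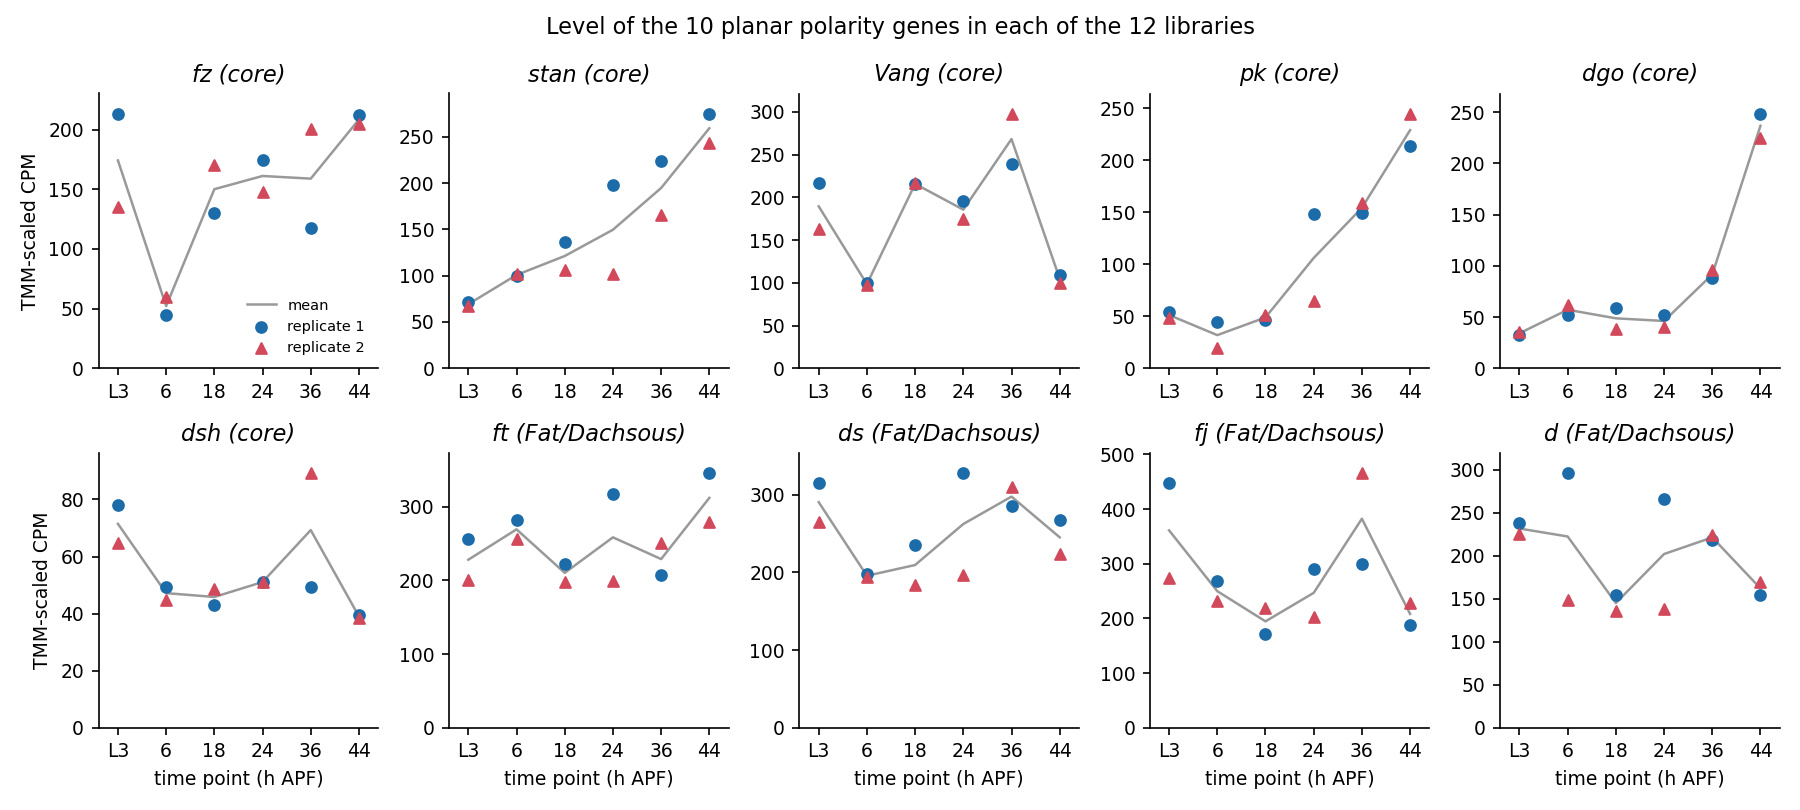
Level of each planar polarity gene in TMM-scaled CPM (vertical axes, starting at 0) at L3 and 6, 18, 24, 36 and 44 h APF (horizontal axes, not to scale), with circles for replicate 1, triangles for replicate 2 and a line through the means. *pk*, *dgo* and *stan* are highest at 44 h, *fz* and *Vang* dip at 6 h, *Vang* drops again at 44 h, and the replicates of *ft*, *ds*, *fj* and *d* overlap across most time points.

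The receptor gene *fz* had a single trough, at 6 h. Its replicates had 213 and 135 CPM at L3, 44.7 and 59.5 CPM at 6 h, 130.0 and 170.2 CPM at 18 h, 174 and 148 CPM at 24 h, 117 and 200.4 CPM at 36 h, and 212 and 205 CPM at 44 h. Both 6 h libraries lay below every other library, the next lowest of which had 117 CPM, whereas the ranges of the other 5 time points overlapped each of their neighbors in order. Its mean of 52.1 CPM at 6 h was 25.0% of its highest mean. At 6 h *fz* fell by 1.75 on the log2 scale relative to L3 (SE 0.31, adjusted p = 0.000703), and at 18 h it rose by 1.53 relative to 6 h (SE 0.31, adjusted p = 0.00171). No later consecutive comparison passed the test, and the values at 36 h differed 1.71-fold between replicates.

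*Vang*, whose product faces Frizzled across the cell boundary, dipped at the same time point and then again at the end. Replicate levels were 216 and 163 CPM at L3, 99.9 and 96.9 CPM at 6 h, 215 and 216 CPM at 18 h, 196 and 175 CPM at 24 h, 239 and 298 CPM at 36 h, and 109.6 and 99.8 CPM at 44 h. The 6 h and 44 h libraries overlapped each other and lay below all others, and both 36 h libraries lay above all others. Relative to L3 *Vang* fell by 0.95 at 6 h (SE 0.21, adjusted p = 0.00286), it rose by 1.13 at 18 h relative to 6 h (SE 0.21, adjusted p = 0.000938), and at 44 h it fell by 1.36 relative to 36 h (SE 0.21, adjusted p = 0.000462). The difference of 0.53 between 36 h and 24 h did not pass the test (SE 0.20, adjusted p = 0.0609). It passed with DESeq2 size factors (adjusted p = 0.0326), in DESeq2's Wald test (0.0172) and without the 6 h libraries (0.0412), in a range of 0.0172 to 0.566 over 8 other settings. With 1 library left out it passed in 3 of 12 fits, without 6 h replicate 1, 6 h replicate 2 or 36 h replicate 1 (adjusted p = 0.0423, 0.0431 and 0.04996), in a range of 0.0423 to 0.293. The summed wing epithelium markers were also lower at 6 h than at L3 and lower at 44 h than at 36 h, with no overlap, and the tracheal list was higher at 6 and 44 h. The part of these in the changes of *fz* and *Vang* was not tested.

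*pk* encodes the LIM domain partner of Van Gogh, and its levels were highest at 44 h, where those of *Vang* were low. The 2 libraries had 54.1 and 48.2 CPM at L3, 44.0 and 19.7 CPM at 6 h, 46.5 and 51.2 CPM at 18 h, 148 and 64.2 CPM at 24 h, 149.8 and 159 CPM at 36 h, and 213 and 245 CPM at 44 h. The 6 h libraries were the lowest of all and the 44 h libraries the highest of all, with no overlap, and 36 h lay between 44 h and every earlier time point. The lower 36 h library (149.8 CPM) was close to the higher 24 h library (148 CPM). No consecutive comparison of *pk* passed the test. The adjusted p was 0.178 at 6 h versus L3, 0.234 at 18 h versus 6 h, 0.293 at 36 h versus 24 h and 0.264 at 44 h versus 36 h. The step at 24 h relative to 18 h was 1.15 on the log2 scale and did not pass the test (SE 0.37, adjusted p = 0.0678), with 24 h replicates that differed by -1.20 on the log2 scale (replicate 2 over replicate 1). Without 24 h replicate 2 the step was 1.61 (adjusted p = 0.0165), and without either 6 h library it was 1.16 (adjusted p = 0.0140 and 0.0139). Over 8 other settings its adjusted p lay between 0.000283 and 0.0685, and over the 12 ways of leaving out a library between 0.0139 and 0.624.

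*dgo*, which encodes the ankyrin repeat protein of the distal complex, had the largest late rise of the 10 genes. It had 32.8 and 35.6 CPM at L3, 52.0 and 62.2 CPM at 6 h, 59.2 and 38.3 CPM at 18 h, 52.0 and 40.3 CPM at 24 h, 87.7 and 95.5 CPM at 36 h, and 248 and 225 CPM at 44 h. The L3 libraries were below all others, the 6, 18 and 24 h libraries overlapped, the 36 h libraries were above these, and the 44 h libraries were at least 225 CPM when no other library exceeded 95.5 CPM. *dgo* rose by 1.37 at 44 h relative to 36 h (SE 0.23, adjusted p = 0.000897) and by 0.97 at 36 h relative to 24 h (SE 0.23, adjusted p = 0.00723). At 6 h it was higher than at L3 by 0.74 (SE 0.24, adjusted p = 0.0233), the opposite direction to *fz* and *Vang*. This small early rise had an adjusted p of 0.137 without L3 replicate 1, 0.0785 without L3 replicate 2 and 0.0861 without 6 h replicate 2, in a range of 0.0150 to 0.137, and over 7 other settings it lay between 0.0130 and 0.605, being 0.605 with library size alone (log2 difference 0.16) and 0.0511 in a fit of the L3 and 6 h libraries only. The rise at 36 h had an adjusted p of 0.0570 without 24 h replicate 2, in a range of 0.00367 to 0.0570 over the libraries left out, and of 0.0695 with library size alone as the scaling, in a range of 0.000686 to 0.0695 over 8 other settings.

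*stan*, the cadherin present on both faces, climbed in small steps. Its levels were 71.3 and 67.1 CPM at L3, 99.2 and 102 CPM at 6 h, 136 and 106 CPM at 18 h, 198 and 101 CPM at 24 h, 224 and 165 CPM at 36 h, and 275 and 244 CPM at 44 h. The L3 libraries were the lowest and the 44 h libraries the highest of all 12, and the means stood in the order of time, but 18 h overlapped 24 h and 24 h overlapped 36 h. No consecutive comparison of *stan* passed the test, the fitted steps lying between 0.27 and 0.54 on the log2 scale.

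*dsh*, which encodes the cytoplasmic protein shared by planar polarity and Wingless signaling, was the least variable core gene. Levels were 78.0 and 64.9 CPM at L3, 49.5 and 44.9 CPM at 6 h, 43.0 and 48.7 CPM at 18 h, 51.1 and 51.0 CPM at 24 h, 49.4 and 89.1 CPM at 36 h, and 39.6 and 38.4 CPM at 44 h. The 44 h libraries were below all others, and the 36 h replicates stood 1.80-fold apart. Both 6 h libraries were below both L3 libraries, but that difference of -0.60 did not pass the test (SE 0.25, adjusted p = 0.0688). It passed in 1 of 7 other settings, library size alone (-1.17, adjusted p = 0.00145). With libraries left out in turn it lay between -0.71 and -0.46. At 44 h *dsh* fell by 0.83 relative to 36 h (SE 0.25, adjusted p = 0.0291). Without 36 h replicate 2 the difference was -0.34 (adjusted p = 0.329), and the adjusted p was 0.117 and 0.139 without either 44 h library, in a range of 0.00334 to 0.329 over all libraries left out.

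Of the Fat/Dachsous genes, *ft*, *ds* and *d* passed no test in the fit of all 12 libraries with TMM factors. *ft* had 256 and 200.3 CPM at L3, 282 and 257 CPM at 6 h, 222 and 198 CPM at 18 h, 317 and 199.9 CPM at 24 h, 207 and 251 CPM at 36 h, and 345 and 279 CPM at 44 h. For its ligand, *ds*, the libraries had 316 and 266 CPM at L3, 198 and 194 CPM at 6 h, 235 and 184 CPM at 18 h, 328 and 197 CPM at 24 h, 285 and 310.0 CPM at 36 h, and 267 and 223 CPM at 44 h. For both cadherin genes every time point overlapped its neighbors in order of level, and no comparison passed the test. The largest fitted differences between consecutive time points were 0.45 for *ft* (44 h versus 36 h, SE 0.25, adjusted p = 0.206) and -0.57 for *ds* (6 h versus L3, SE 0.25, adjusted p = 0.0851). This difference of *ds* passed the test in 1 of 7 other settings, library size alone (-1.14, adjusted p = 0.00192). That scaling shifted the median of all genes by -0.55. With libraries left out in turn the difference lay between -0.68 and -0.44. An annotated noncoding RNA on the opposite strand, lncRNA:CR44988, shares exon sequence with *ds*, and since the strand setting of the counting is not given in the sources used here, reads of the 2 genes may not have been separated.

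*d*, the myosin gene, had 239 and 225 CPM at L3, 296 and 149 CPM at 6 h, 155 and 136 CPM at 18 h, 266 and 138 CPM at 24 h, 219 and 224 CPM at 36 h, and 155 and 169.6 CPM at 44 h. Its replicates at 6 h and at 24 h lay further apart than the means of any pair of time points, and no comparison passed the test. The fitted difference of *d* at 18 h versus 6 h was -0.62. With libraries left out in turn it lay between -1.03 (without 6 h replicate 2) and -0.04. *fj*, the kinase gene, had 448 and 274 CPM at L3, 268 and 231 CPM at 6 h, 171 and 219 CPM at 18 h, 290.2 and 203 CPM at 24 h, 299.5 and 465 CPM at 36 h, and 188 and 228 CPM at 44 h. Both 44 h libraries of *fj* were below both 36 h libraries. *fj* fell by 0.88 at 44 h relative to 36 h (SE 0.30, adjusted p = 0.0493), the only call among the 4 genes. Without 36 h replicate 2 the difference was -0.52 (adjusted p = 0.323). The adjusted p was also 0.241 and 0.117 without either 44 h library and 0.0638 and 0.0634 without either 18 h library, in a range of 0.0295 to 0.323.

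Counts of calls were then read beside those of all genes, with a call defined as an adjusted p under 0.05 over the 8469 genes tested. At 6 h relative to L3, 1 of the 10 genes was higher (*dgo*) and 2 were lower (*fz*, *Vang*), beside 23.4% of all genes higher and 22.0% lower. Only *fz* also changed at least 2-fold, as 32.8% of all genes did. At 18 h relative to 6 h, 2 of 10 were higher (*fz*, *Vang*) and 0 lower, beside 21.7% and 22.8% of all genes, and both changed at least 2-fold, beside 32.0%. These comparisons share the 6 h libraries. In neither was the share of the 10 genes above the background.

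At 24 h relative to 18 h edgeR called 0 of the 10 genes, where it called 4.64% of all genes higher, 7.76% lower and 8.81% with at least a 2-fold change. Of the 10, 1 gene (*pk*) had an unadjusted p under 0.05 there, and DESeq2's Wald test called 1, also *pk*. At 36 h relative to 24 h, 1 of 10 was higher (*dgo*) and 0 lower, beside 19.3% and 16.7% of all genes, and 0 changed at least 2-fold, beside 25.4%. At 44 h relative to 36 h, 1 of 10 was higher (*dgo*) and 3 were lower (*Vang*, *dsh*, *fj*), beside 14.9% and 13.0% of all genes. The 2 that changed at least 2-fold were *dgo* and *Vang*, which moved in opposite directions, beside 19.9% of all genes. Consecutive comparisons share the libraries of the time point between them. Relative to the time point before, the median log2 difference of the 10 genes was -0.55 for 6 h, 0.03 for 18 h, 0.31 for 24 h, 0.40 for 36 h and 0.06 for 44 h, where the medians of all genes tested lay between -0.04 and 0.08.

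**Figure D2:**
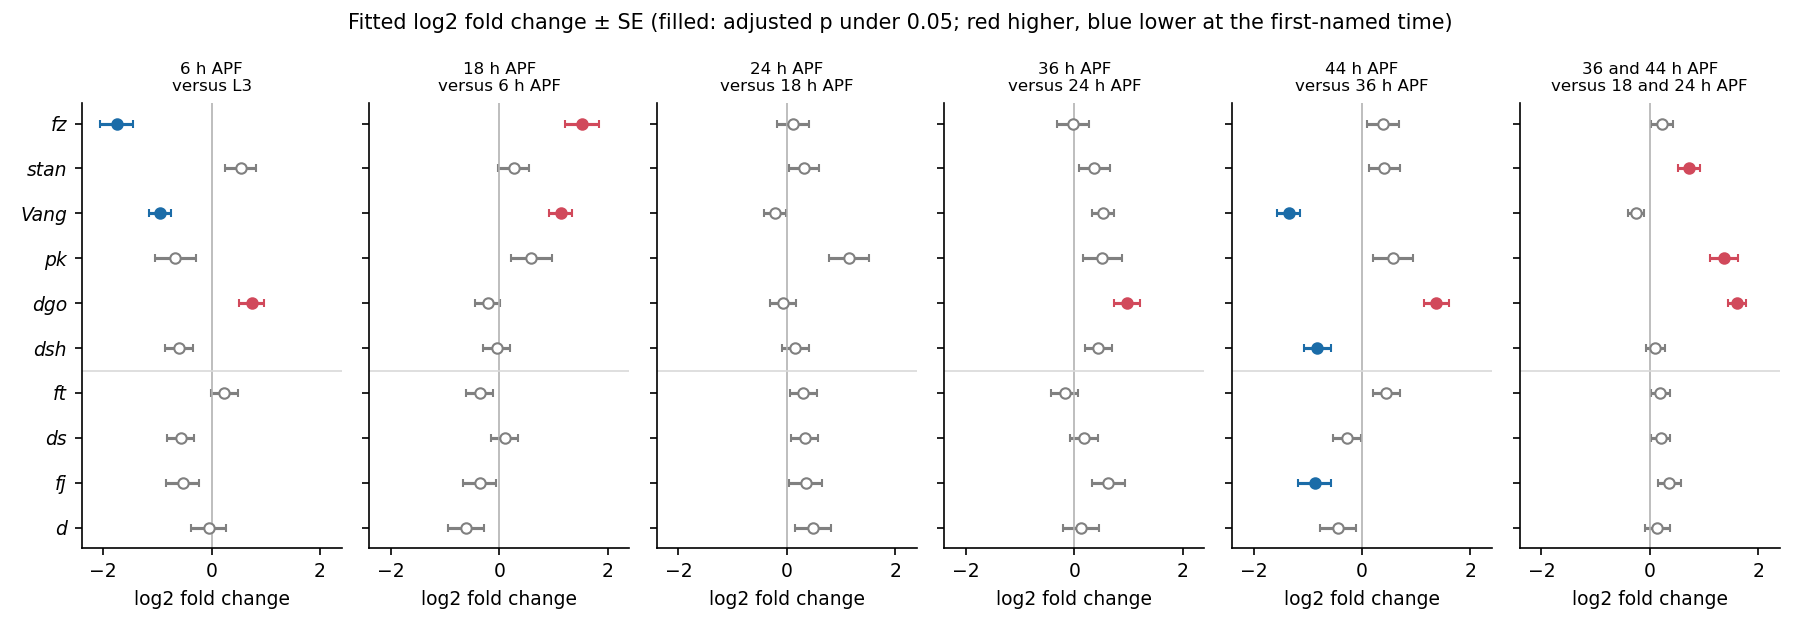
Fitted log2 fold change of each planar polarity gene (horizontal axes, bars are the SE) in the 6 comparisons, with core genes above the gray line and Fat/Dachsous genes below it. Filled points have an adjusted p under 0.05, red where the gene was higher and blue where it was lower at the first-named time point. Of the 13 filled points, 1 belongs to a Fat/Dachsous gene, *fj* at 44 h versus 36 h.

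The stages with wing hairs were compared as a block with the 2 pupal stages before them, as the mean of 36 and 44 h APF against the mean of 18 and 24 h APF. In this comparison 3 of the 10 genes were higher, all of them core genes, and 0 were lower, beside 30.2% of all genes higher and 29.4% lower. *dgo* rose by 1.62 (SE 0.17, adjusted p = 5.53e-06), with 87.7 to 248 CPM at 36 and 44 h, against 38.3 to 59.2 CPM at 18 and 24 h. *pk* rose by 1.37 (SE 0.26, adjusted p = 0.000796), with 149.8 to 245 CPM at 36 and 44 h, against 46.5 to 148 CPM at 18 and 24 h. Both changed at least 2-fold, as 34.7% of all genes did, and neither had overlapping libraries. *stan* rose by 0.73 (SE 0.20, adjusted p = 0.00810), with 165 to 275 CPM at 36 and 44 h, against 101 to 198 CPM at 18 and 24 h, which overlap. With library size alone as the scaling, under which the median of all genes shifted by -0.60, the change of *stan* was 0.14 (adjusted p = 0.529, in a range of 0.000228 to 0.529 over 8 other settings). The remaining 7 genes had fitted differences between -0.26 (*Vang*) and 0.36 (*fj*), and none passed the test. With library size alone *Vang* fell by 0.84 (adjusted p = 0.000154, in a range of 0.000154 to 0.329 over 8 other settings) and *dsh* by 0.48 (adjusted p = 0.0258, in a range of 0.0258 to 0.770). The 36 and 44 h libraries also had higher summed muscle markers (1341 to 2950 CPM, against 234 to 426 CPM at 18 and 24 h), higher summed neuronal markers (244 to 384 CPM, against 103 to 172 CPM at 18 and 24 h), higher summed tracheal markers (311 to 380 CPM at 36 h and 7674 to 8750 CPM at 44 h, against 171 to 243 CPM at 18 and 24 h) and lower summed wing epithelium markers (906 to 1405 CPM, against 2050 to 2456 CPM at 18 and 24 h). All 7 muscle genes and all 6 neuronal genes were above the floor in every 36 and 44 h library, and no gene of either list was at 0 there. Of the 4 tracheal genes, all were above the floor in both 36 h libraries and 3 in both 44 h libraries. Their sum cannot be read as an amount of tracheal tissue. The part of these marker differences in the rise of *dgo*, *pk* and *stan* was not tested.

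The makeup of the core group was then compared within each library, which does not depend on scaling between libraries. Levels were divided by the summed length of each gene's annotated exons, since longer transcripts give more reads. On this scale of CPM per kb, *fj* had the highest mean of the 10 genes over the 12 libraries (77.1), followed by *Vang* (50.7), *fz* (39.5), *d* (32.3), *dgo* (24.2), *ds* (20.1), *dsh* (19.0), *pk* (15.3), *ft* (14.9) and *stan* (11.0). The exon lengths used were between 2844 bases for *dsh* and 16852 bases for *ft*. Isoforms were not separated, so these levels rest on all annotated exons of a gene being transcribed, which is least sure for *stan*, with 7 annotated transcripts, and *pk*, with 3.

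*Vang* took 36.9 and 36.7% of the summed core level in the L3 libraries, 33.2 and 31.8% in those of 6 h, 42.6 and 41.3% in those of 18 h, 32.8 and 37.1% in those of 24 h, and 38.0 and 36.8% in those of 36 h. At 44 h it took 14.1 and 13.4%, below every other library. *dgo* took 31.5 and 29.8% at 44 h, where its share elsewhere was between 5.53% and 20.2%, and *pk* took 14.2 and 17.0%, where its share elsewhere was between 3.35% and 12.8%. The share of *dsh* was 6.25 and 6.33% at 44 h and at least 9.66% in the other libraries. *fz* kept 24.9 and 25.1% at 44 h, within its range of 13.6 to 33.3% elsewhere.

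Written as ratios of levels per kb, *Vang* exceeded *pk* 7.72 and 6.52 times at L3, 4.39 and 9.50 times in the 6 h libraries, 8.93 and 8.16 times in the 18 h libraries, 2.56 and 5.26 times in the 24 h libraries, and 3.08 and 3.62 times in the 36 h libraries. At 44 h the ratio was 0.99 and 0.79. The ratio of *dgo* to *dsh*, partners on the distal side, was 0.34 and 0.44 at L3, lay between 0.63 and 1.43 from 6 to 36 h, and was 5.04 and 4.71 at 44 h. *fz* was below *Vang* in every library up to 36 h (ratios of 0.41 to 0.90) and above it at 44 h (1.77 and 1.88). With 2 libraries at 44 h against 10 others these ratios are given as descriptions. Within the Fat/Dachsous group *fj* took 44.1 to 63.1%, *d* 17.7 to 30.9% and *ds* 10.2 to 17.9% over the 12 libraries. *ft* took 17.0 and 13.1% at 44 h, against 7.91 and 7.17% at 36 h, its lowest mean share.

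**Figure D3:**
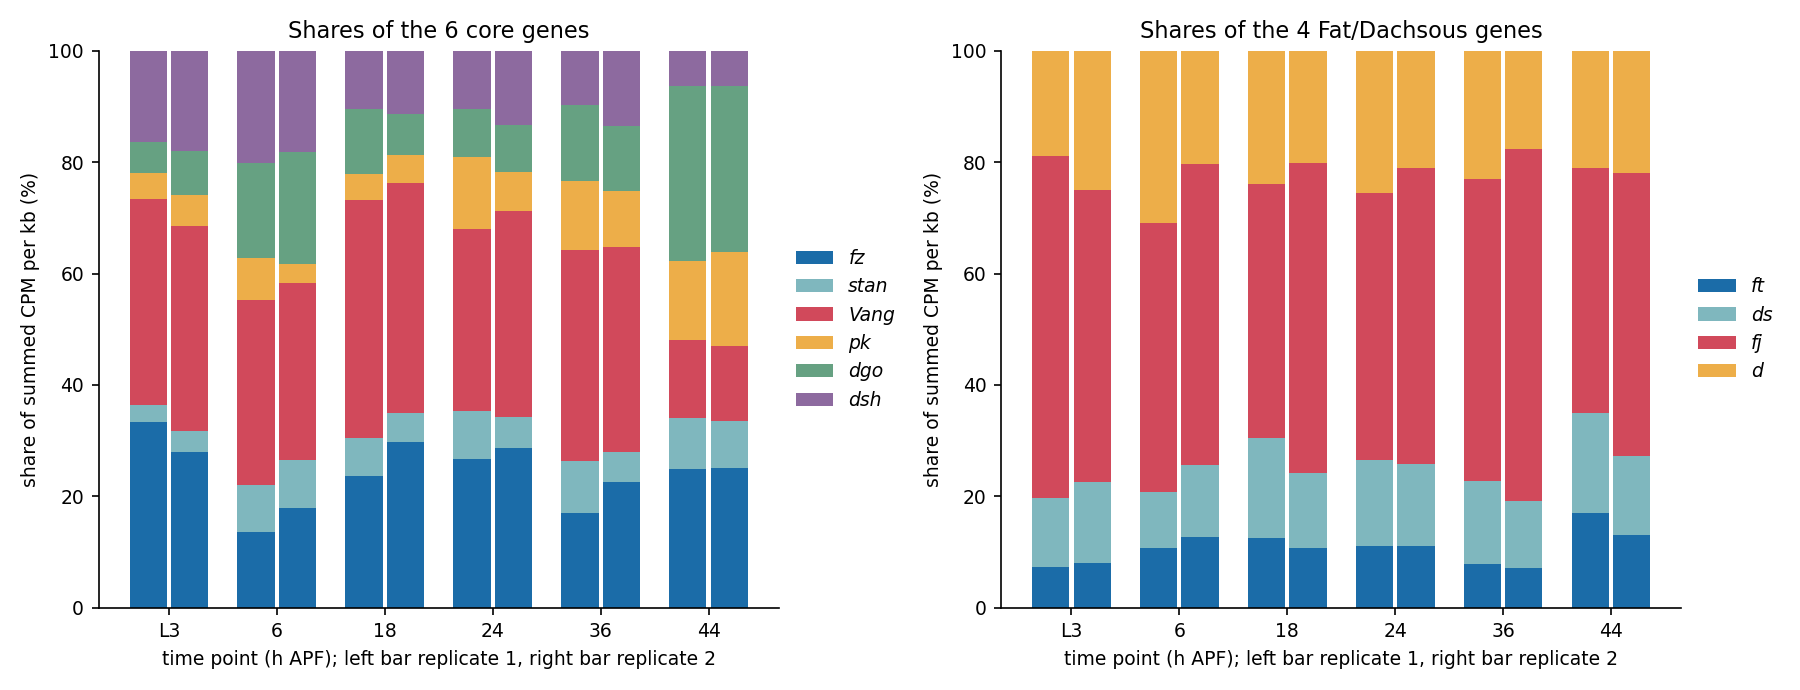
Share of each gene (percent, vertical axes) in the summed CPM per kb of the 6 core genes (left) and of the 4 Fat/Dachsous genes (right), with 1 bar for each library, replicate 1 beside replicate 2 at each time point. At 44 h the *Vang* share is 14.1 and 13.4% and the *dgo* share 31.5 and 29.8%, while *fj* takes 44.1% or more of the Fat/Dachsous level in every library.

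The spread between replicates was not the same for every time point. At 24 h all 10 genes were lower in replicate 2 than in replicate 1, with a median log2 ratio of -0.59, where 53.9% of all genes tested were lower and the median of all was -0.04. This library was the smallest of the series, with 1659208 reads on genes. The ratio moved with gene length there, since its median was 0.26 for genes with under 1 kb of exon, -0.37 for those with 4 to 8 kb and -0.46 for the 432 genes over 8 kb (Spearman's rho -0.43 across genes, which are not independent replicates). A like trend was present at 18 h (rho -0.40, with medians of 0.28 under 1 kb and -0.23 at 4 to 8 kb), where 5 of the 10 genes were lower in replicate 2, and at 6 h (rho -0.28), where 7 were. *ft*, *stan* and *ds* are among the genes over 8 kb, and *pk* and *d* among those with 4 to 8 kb. At 36 h 9 of the 10 genes were higher in replicate 2, all but *stan*, with a median of 0.20. At 44 h the log2 ratios of the 10 genes lay between -0.31 and 0.28. Whether gene length accounts for the spread of these genes at 24 h was not tested.

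**Figure D4:**
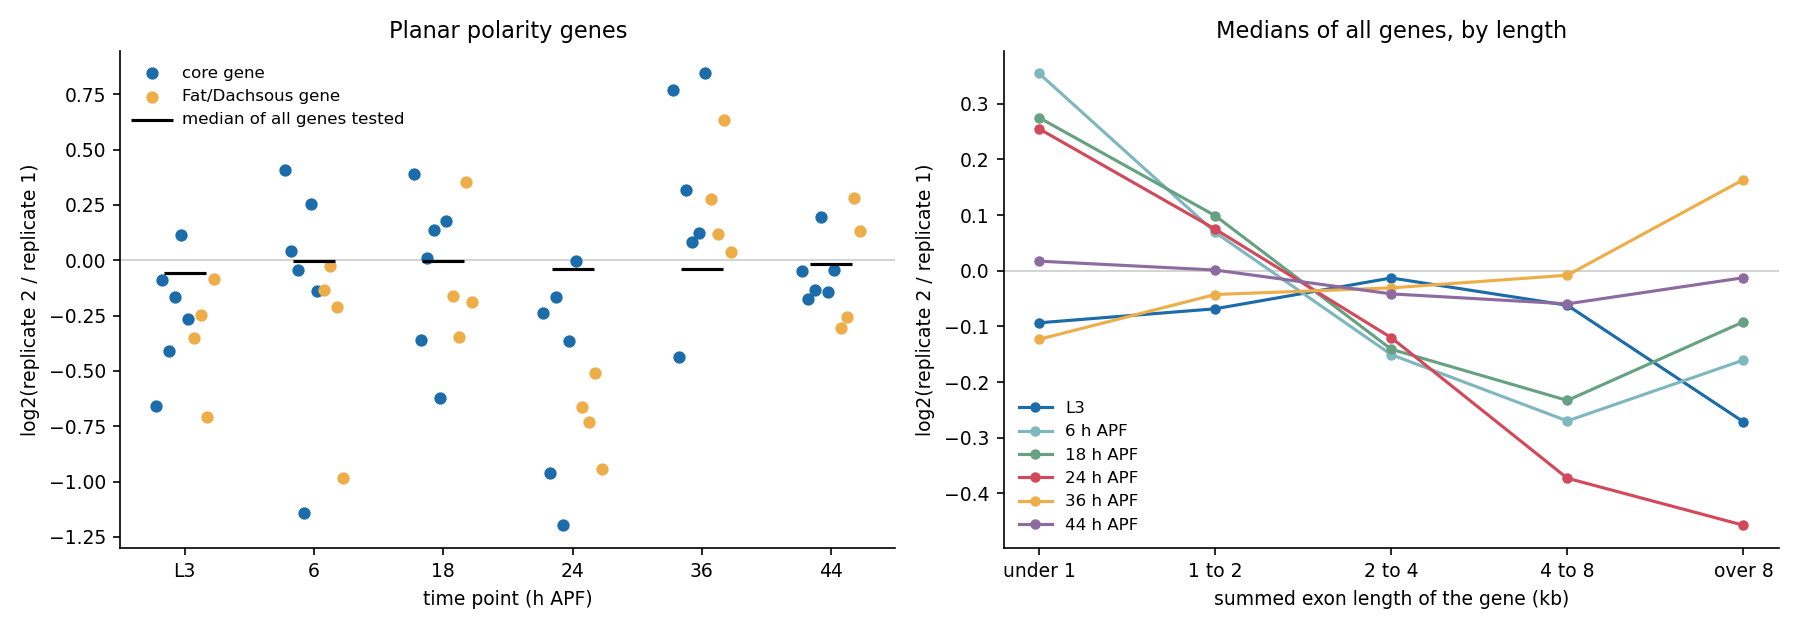
Left, log2 ratio of replicate 2 to replicate 1 for each planar polarity gene (points, vertical axis) at each time point, with a black bar for the median of all genes tested. Right, the median of that ratio over all genes in 5 bins of summed exon length, with 1 line for each time point. All 10 points are below 0 at 24 h, and the 24 h line reaches -0.46 in the bin over 8 kb.

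For each of the 10 genes the 3 tested genes with the highest Pearson correlation of log2 CPM over the 12 libraries were listed, as a description of likeness in which all points share library and time. *dgo* was most like *CG10348* (r = 0.988), *Mhcl* (0.982), a myosin heavy chain-like gene, and *Hil* (0.980). These 3 had their highest mean at 44 h, with 197, 762 and 692 CPM, and at most 197 CPM at any earlier time point. *stan* was most like *Wnt5* (0.961), which encodes a Wnt ligand, followed by *bchs* (0.960) and *CG7166* (0.957). The closest genes to *Vang* were *CG34348* (0.967), *CG1291* (0.947) and *CG6966* (0.947), each with troughs at 6 and 44 h. *pk* was closest to *rut* (0.956), the adenylyl cyclase gene *rutabaga*, then *rap* (0.944) and *CG42741* (0.938). *fz* was closest to *CG11377* (0.915), *CG2915* (0.904) and *CG4406* (0.896), each with its lowest mean at 6 h. *dsh* was closest to *Ssdp* (0.930), *CG8677* (0.924) and *Rsf1* (0.918).

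In the Fat/Dachsous group *fj* was most like *tna* (0.972), *ZAP3* (0.954) and *Ncoa6* (0.954), and *d* was most like *CG7546* (0.957), *trpm* (0.947) and *Eps-15* (0.944). *ds* was closest to *CG17180* (0.904), *mrt* (0.871) and *CG7158* (0.861), and *ft* to *Efa6* (0.853), *CG43367* (0.846) and *Sara* (0.841). None of the 10 planar polarity genes was among the 3 closest to another. Among themselves the highest correlations were those of *dsh* with *fj* (0.873), *stan* with *dgo* (0.856) and *stan* with *pk* (0.827). The lowest were those of *Vang* with *ft* (-0.47), *stan* with *dsh* (-0.46) and *dgo* with *dsh* (-0.46).

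Other planar polarity genes were counted from lists. Of 9 effectors that act on the cytoskeleton downstream of the core group, 5 were higher at 36 h relative to 24 h (*mwh*, *in*, *dia*, *frtz* and *zip*) and 0 lower, beside 19.3% of all genes higher and 16.7% lower. At 44 h relative to 36 h 0 were higher and 3 lower (*in*, *fy* and *zip*), beside 14.9% and 13.0% of all genes. The median log2 difference of the list was 0.69 at 36 h and -0.38 at 44 h, where the medians of all genes were -0.04 and 0.08. *mwh* (*multiple wing hairs*), which limits each cell to a single hair, had 559 and 494 CPM at 36 h, against 35.9 and 20.4 CPM at 24 h (log2 difference 4.17, SE 0.33, adjusted p = 2.99e-06). *in* (*inturned*), which acts between the core proteins and *mwh*, was high at 36 h alone, with 109 and 94.9 CPM there, against 40.8 and 21.4 CPM at 24 h (log2 difference 1.65, SE 0.29, adjusted p = 0.000985). At 44 h it had 13.5 and 13.4 CPM and fell by 2.92 relative to 36 h (SE 0.31, adjusted p = 2.82e-05). The formin gene *dia* had 63.0 to 66.5 CPM at 36 h, against 24.0 to 38.4 CPM at 24 h (log2 difference 1.01, SE 0.27, adjusted p = 0.0114). The adjusted p of *dia* was 0.0770 without 24 h replicate 2, in a range of 0.00312 to 0.0770 over the libraries left out, and 0.0696 with library size alone (log2 difference 0.63), in a range of 0.000729 to 0.0696 over 8 other settings. The rise of *mwh* at 36 h and the fall of *in* at 44 h had larger fitted values than any consecutive change of a core gene.

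Of 8 partners of Fat and Dachsous, 2 were higher (*CG4221*, *dco*) and 1 lower (*CG10933*) at 36 h relative to 24 h, beside 19.3% of all genes higher and 16.7% lower. At 36 and 44 h relative to 18 and 24 h 3 were higher (these 2 and *Gug*) and 1 lower (*CG10933*), beside 30.2% and 29.4% of all genes. *CG4221*, the F-box gene *Fbxl7*, had 90.6 to 127 CPM at 36 and 44 h, against 22.4 to 67.9 CPM at 18 and 24 h (log2 difference 1.52, SE 0.16, adjusted p = 6.26e-06). *CG10933* (*Dlish*), whose product binds Dachs, had 45.3 to 68.3 CPM at 36 and 44 h, against 116 to 125 CPM at 18 and 24 h, and fell by 1.13 (SE 0.14, adjusted p = 3.27e-05). *ft*, *ds*, *fj* and *d* did not pass the test in that comparison. Of 9 tested regulators of the core proteins, 1 was higher there (*sgg*, the kinase gene *shaggy*) and 0 were lower, beside those same shares.

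Relatives of the 10 genes were counted in the same way. In the *frizzled* family of 5, 4 were lower at 6 h relative to L3 and 0 higher, beside 22.0% of all genes lower and 23.4% higher. Besides *fz* these were *fz2* (log2 difference -1.39, adjusted p = 0.00118), *fz3* (-2.17, adjusted p = 9.45e-05) and *fz4* (-1.17, adjusted p = 0.00121), which are named after their values were seen. *fz3* and *fz4* were higher again at 18 h, by 1.98 and 1.31 (adjusted p = 0.000191 and 0.000570), as *fz* was. *smo*, the fifth member and the transducer of Hedgehog signaling, had 29.5 to 37.7 CPM at 36 and 44 h, against 61.4 to 87.2 CPM at 18 and 24 h, and fell by 1.07 (SE 0.16, adjusted p = 0.000141). *esn* (*espinas*), the closest relative of *pk*, had 227 to 299.8 CPM at 36 and 44 h, against 76.7 to 169.5 CPM at 18 and 24 h (log2 difference 1.43, SE 0.20, adjusted p = 6.77e-05), and thus rose in the same comparison as *pk*. *Tes*, which encodes a protein with the same domains as Prickle, fell by 1.02 (SE 0.18, adjusted p = 0.000417).

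Of 15 cadherin genes tested, *ft*, *ds* and *stan* included, 6 were higher and 0 lower at 36 h relative to 24 h, beside 19.3% and 16.7% of all genes. At 44 h relative to 36 h 1 was higher and 6 were lower, beside 14.9% and 13.0% of all genes. None of these 13 calls was one of the planar polarity cadherins. *Cad89D* had 979 to 1285 CPM at 36 h, against 39.3 to 67.0 CPM at 24 h (log2 difference 4.39, SE 0.34, adjusted p = 2.67e-06). *Cad96Ca* (1.72, adjusted p = 4.38e-05), *Cad88C* (2.50, adjusted p = 7.3e-05) and *Cad99C* (1.46, adjusted p = 0.00228) were also higher at 36 h. Of 9 unconventional myosin genes tested, *d* included, 3 were higher and 1 lower (*Myo31DF*) at 36 h relative to 24 h, beside 19.3% and 16.7% of all genes. The 3 higher were *Myo10A* (2.90, adjusted p = 5.72e-05), *ck* (1.88, adjusted p = 0.000445), which shapes hairs and bristles, and *Myo61F* (1.82, adjusted p = 0.000625), where *d* differed by 0.12 (SE 0.33, adjusted p = 0.803).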

How the data were processed

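Per the labels and methods, RNA from staged wings was made into stranded mRNA libraries. The authors aligned reads to dm3 with TopHat2 2.1.0 and counted them per gene with HTSeq 0.6.1, and they deposited raw counts and RPKM values from edgeR. The strand setting is not given in the sources used here. Between 44.0 and 75.2% of records were assigned to no gene and were left out. Counts were tested with edgeR 4.0.16 (R 4.3.3), with TMM factors and a quasi-likelihood fit of 6 time point means over 12 libraries. Genes needed a log2 CPM above 2 (prior count 2) in at least 1 library, and p-values were adjusted over all 8469 of them. The common biological coefficient of variation was 20.8%. Each time point was compared with the one before it, and 36 and 44 h with 18 and 24 h. Alternatives were DESeq2 1.42.0, other scalings and filters, a replicate term and leaving out libraries. The fit was tested on simulated data. RPKM values were meant for levels between genes, but the lengths behind them did not match the genes, so counts were divided by exon lengths from the BDGP6 annotation (98.1% of genes matched), whose coordinates were not used. A further 2 RPKM columns match no sample and were not used. The genes and lists were chosen with earlier results of these data known. All 10 genes are named, with the 3 most alike of each. From each list at most 4 genes are named, those with the smallest adjusted p among genes called with a 2-fold change at 36 h, or at 36 and 44 h. Other list genes named beside a count were chosen after their values were seen. Markers of hemocytes, fat body, glia and salivary gland were also summed.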

Additional observations from a re-analysis of the deposited data

How the results depend on the processing

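Under other scalings, filters and tests and the leaving out of each library, no called change of a named gene turned its direction. Calls were kept in 383 of 390 values under the alternatives and in 583 of 600 with a library left out, where the lone library left at a time point is assumed to vary like the others. Of the 47 differences of the 10 genes that were not called, 16 changed sign under an alternative and 17 with some library left out. Of these reversals 1 passed the test, *dsh* at 36 and 44 h versus 18 and 24 h with library size alone (-0.48, adjusted p = 0.0258). Library size alone shifted the median of all genes by -0.55 at 6 h versus L3, 0.50 at 18 h, -0.40 at 36 h, -0.34 at 44 h and -0.60 in the comparison of stages, and made 25.7, 73.7, 29.0, 28.5 and 25.5% of the called genes higher, beside 51.6, 48.8, 53.7, 53.6 and 50.7%. With it 6 of the 10 genes were called at 6 h versus L3, 4 at 18 h versus 6 h and 0 at 36 h versus 24 h. Among the uncalled values that it also reversed were *stan* at 6 h versus L3 (-0.037), *d* at 36 h versus 24 h (-0.26) and *fj* in the comparison of stages (-0.22). In the comparison of stages the lowest values under an alternative were also negative for *fz* (-0.36), *ft* (-0.39), *ds* (-0.39) and *d* (-0.44).

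At 24 h versus 18 h, 1 of the 10 genes was called with no filter on low counts, with DESeq2's Wald test, in a fit of the libraries compared alone and with the 6 h libraries left out of the fit. The last was chosen after seeing the data and called 1666 genes in all, beside 1050. At 36 h versus 24 h, 2 were called with DESeq2's size factors, with its Wald test and without the 6 h libraries. With libraries left out in turn, the genes called numbered 309 (without 24 h replicate 1) to 1665 (without a 6 h library) at 24 h versus 18 h, 2024 to 3640 at 36 h versus 24 h and 1351 to 2968 at 44 h versus 36 h. Of the 10 genes, 0 to 1, 0 to 3 and 2 to 4 were called in these, and *d* lay between -0.24 and 0.68 at 36 h versus 24 h. The cause of these shifts was not tested.

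The 15 correlations between the deviations of same-numbered replicates lay between -0.16 and 0.20. The 2 over 0.1 were those of 24 h with 6 h (0.20) and with 18 h (0.16). At 6, 18 and 24 h the ratio of replicate 2 to replicate 1 also fell with gene length (Spearman's rho -0.28, -0.40 and -0.43). A replicate block gave 1100 called genes at 24 h versus 18 h, beside 1050, and changed 1 call among the 10 genes, *fj* at 44 h versus 36 h (adjusted p = 0.0517). By deposited RPKM values the highest mean of *fz*, *Vang* and *ft* was at 18 h and that of *ds* and *fj* at L3. These values were scaled by all records of a library, those assigned to no gene included. With Spearman correlation none of the 3 genes most like *fz*, *stan*, *Vang*, *pk*, *dgo* or *dsh* stayed the same. The 2 libraries a time point and the 1659208 reads of 24 h replicate 2 limit the precision of all comparisons.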

Other observations

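The deposited RPKM values imply a length for each gene, the count divided by the RPKM and the library size, and that length was constant across libraries. It bore no relation to the annotated exon length in the row order of the tables, with a Spearman's rho of 0.01 over 12468 genes and 13.9% of genes within 20% of it. When the annotated lengths were instead laid out along symbols sorted without regard to case, rho was 0.957 over 12425 genes and 91.1% were within 20%. The implied length was 830 bases for *ft*, 1202 for *stan*, 384 for *pk* and 5086 for *fj*, where the annotated exons sum to 16852, 13535, 6748 and 3551 bases. The same length divides each RPKM value of 1 gene, so a wrong length cancels between libraries. The library size behind these values counted all records, with no TMM factor. Of those records 44.0 to 75.2% were assigned to no gene, so RPKM values of 1 gene also depend on that share.

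The other marker lists had the following summed levels. Hemocyte genes (6 of 7 found) summed to 37.5 to 106 CPM and glial genes to 142 to 464 CPM over the 12 libraries. The 6 fat body genes summed to 5.98 and 6.06 CPM at L3 and to 96.8 to 668 CPM later, the highest being a 6 h library. The 6 salivary gland glue genes summed to at most 3.78 CPM in any library.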
